A study of Mus musculus with 23 samples.

Results

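The cell cycle and proliferation genes were a list of 42 genes, taken by gene symbol, that runs from the D cyclins of early G1 to the machinery of DNA replication and mitosis. For each gene the brightest probe set by its average on the 23 arrays was used, leaving out probe sets shared with another gene. That gave 41 of the 42 genes, out of 18193 genes with such a probe set. Ccnb1 (cyclin B1) had none, so its expression is not analysed here. RNA was measured on 23 Affymetrix arrays of whole liver from male C3H mice. Ctnnb1 knockout with phenobarbital (n = 7) received 0.05% of the drug in the diet for 12 weeks, and Ctnnb1 knockout without it (n = 7) is called knockout control. Wild type with phenobarbital (n = 4) had the same dose and time, and wild type without it (n = 5) is called wild-type control. The labels give water as the vehicle of the controls, while the treatment description speaks of a diet free of the drug. In the knockout, Cre recombinase driven by the albumin promoter deletes the floxed part of Ctnnb1, so the deletion is aimed at hepatocytes. Whether it reached other liver cells was not tested. Ages, and whether each replicate is a separate animal, are not given in the labels, so a p-value reflects how these samples vary, which may be technical.

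Phenobarbital is a barbiturate that activates the nuclear receptor CAR in hepatocytes, enlarges the liver and promotes liver tumours in mice. Ctnnb1 encodes beta-catenin, the effector of canonical Wnt signalling. Most hepatocytes of an adult liver rest outside the cycle. On entry, D cyclins with Cdk4 start the inactivation of the retinoblastoma protein, E2F factors then switch on the genes of DNA replication, and a later wave of genes, read by Foxm1 and the MuvB complex, carries the cell through G2 and mitosis. The 42 genes were sorted by these roles: the D cyclins Ccnd1, Ccnd2 and Ccnd3 with their kinase Cdk4, 4 genes of G1 to S control, 10 of S phase, and 24 of G2 and M phase.

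Levels are log2 signals, so a log2 change of 1 is a 2-fold change of signal. Levels of different genes were not set against each other, because probe sets differ in brightness. Of the 41 genes, 35 exceeded the 40th percentile of an array in at least 4 arrays and were tested with 13791 others. Aurkb, Bub1, Cdc25c, Cenpe, Kif11 and Tyms lay below it and have levels but no test. Of the 35, 11 were above that level in only some arrays. Array medians lay between 5.09 and 5.14. The mean of 8 hepatocyte markers lay between 13.75 and 13.92 on all arrays. The targeted gene, Ctnnb1, averaged 12.19 ± 0.09 in knockout with phenobarbital (SD, n = 7) and 12.07 ± 0.03 in wild type with it (SD, n = 4), and was not called in either genotype comparison (limma, adjusted p = 0.16 with the drug and 0.54 without). Where its probe sets lie relative to the deleted exons is not given in the sources used here, so this level checks nothing. The 7 knockout control arrays stood apart from each other: on replicates 2, 6 and 7 the macrophage marker mean lay between 9.49 and 9.86, on replicate 1 it was 9.08, and on replicates 3, 4 and 5 it lay between 7.45 and 7.54. Replicates 2, 6 and 7, which earlier results of these data had set apart, are also the 3 highest knockout control arrays for Ccnd1 and for the macrophage mean. Calls of knockout control against wild-type control that are described by name are given also without these 3 arrays, as values that the choice of arrays can shape.

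**Figure D1:**
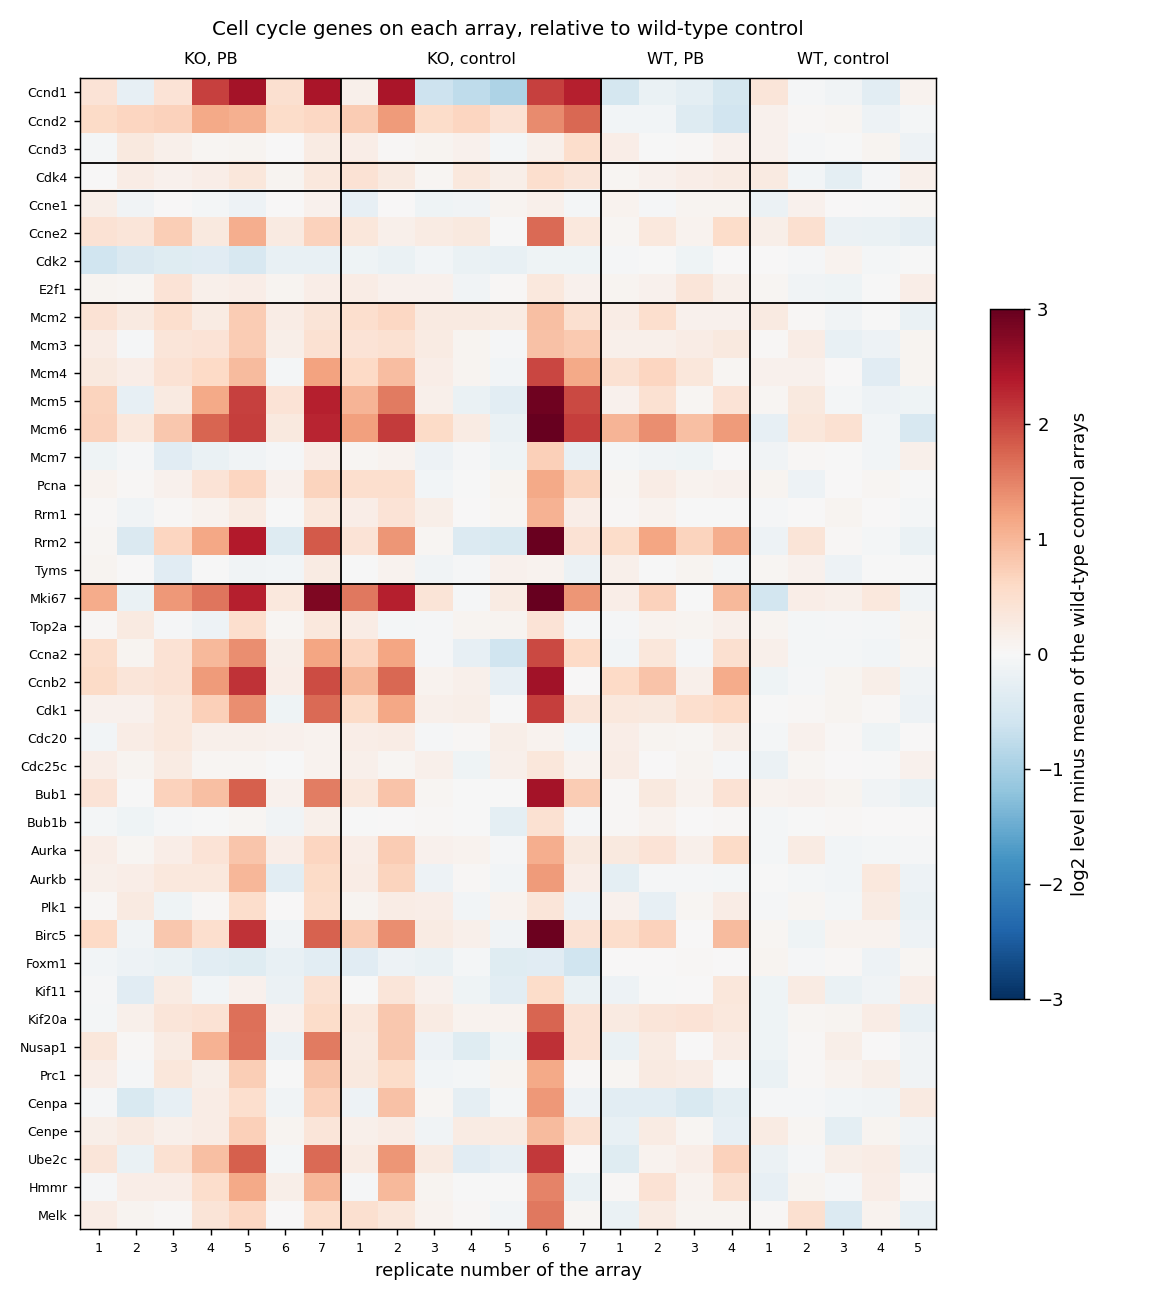
Log2 level of the 41 measured genes (rows, by role) on each of the 23 arrays (columns, by group), as the difference from the mean of the 5 wild-type control arrays, with colours capped at 3 in either direction. Knockout control replicate 6 and phenobarbital-treated knockout replicates 5 and 7 are red over most S, G2 and M phase genes, whereas Ccnd2 is red on all 14 knockout arrays.

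In the comparison of genotypes without phenobarbital, 5 of 35 members were called higher (Ccnd2, Cdk4, Mcm2, Mcm3 and Mcm6), beside 14.8% of all genes. Cdk2 and Foxm1 were called lower, 2 of 35 beside 10.1%. Neither share exceeded that of all genes. Without knockout control replicates 2, 6 and 7, 1 member was higher and 1 lower. The count of higher members was 3 when any 1 of replicates 1, 2, 6 and 7 of the knockout controls was left out, or of wild-type control replicates 1, 4 and 5, 2 without wild-type control replicate 3, and 8 or 9 without knockout control replicate 3, 4 or 5. Ccnd2 alone was higher with no overlap, beside 6.98% of all genes, and Cdk2 alone lower, beside 3.65%. With phenobarbital, 1 of 35 was higher (Ccnd2), beside 11.9%, and 2 were lower (Cdk2 and Foxm1), beside 8.12%. Ccnd2 had no overlap upward, beside 11.2%, and Cdk2 and Foxm1 none downward, beside 7.38%.

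Among the D cyclins, Ccnd2 was higher on every knockout array than on any wild-type array of the same treatment, Ccnd1 varied widely between knockout arrays, and Ccnd3 was not called in any comparison. D cyclins bind Cdk4 and Cdk6 and link growth signals to the cell cycle. Without phenobarbital, the Ccnd2 level was 7.89, 8.40, 7.67, 7.76, 7.55, 8.54 and 8.85 in knockout livers, against 7.25, 7.15, 7.17, 6.98 and 7.06 in wild type. With phenobarbital it was 7.70, 7.77, 7.82, 8.27, 8.19, 7.68 and 7.74 in knockout livers, against 7.05, 7.04, 6.75 and 6.55 in wild type. The groups did not overlap in either comparison. Ccnd2 rose by a log2 change of 0.97 in knockout without the drug (SE 0.18, limma, adjusted p = 0.00071) and of 1.03 with it (SE 0.20, limma, adjusted p = 0.00086). All 6 of its tested probe sets were called higher in both comparisons. The call held under all 33 alternative settings, with adjusted p up to 0.0108 without the drug and 0.0093 with it. Without knockout control replicates 2, 6 and 7 the change without the drug was 0.59 (limma, adjusted p = 0.0043). Phenobarbital itself gave log2 changes of -0.21 in knockout and -0.28 in wild type, which did not pass the test (limma, adjusted p = 0.61 in both).

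Ccnd1 (cyclin D1), described elsewhere as a beta-catenin target in tumour cells, had levels of 7.71, 9.995, 6.93, 6.79, 6.61, 9.61 and 9.87 in knockout control livers, against 7.91, 7.51, 7.43, 7.23 and 7.66 in wild-type control livers. Knockout replicates 2, 6 and 7 lay above every wild-type array, and replicates 3, 4 and 5 lay below every one. With phenobarbital the levels were 7.95, 7.30, 7.96, 9.60, 10.05, 8.04 and 9.99 in knockout, against 7.03, 7.36, 7.25 and 7.02 in wild type. Here 6 of 7 knockout arrays exceeded all wild-type arrays, and replicates 4, 5 and 7 stood highest. The genotype difference did not pass the test without the drug, at a log2 change of 0.67 (SE 0.60, limma, adjusted p = 0.43). It was 1.54 with the drug (SE 0.64, limma, adjusted p = 0.093) and passed with the knockout and wild-type phenobarbital groups alone in the fit (limma, adjusted p = 0.045). Phenobarbital in knockout gave 0.49 (SE 0.54, limma, adjusted p = 0.75). The difference without the drug turned to -0.54 without knockout control replicates 2, 6 and 7, a direction set by leaving out the 3 arrays with the highest Ccnd1. All 3 Ccnd1 probe sets had the same sign in each of these comparisons.

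Ccnd3 averaged 7.13 ± 0.19 in knockout control (SD, n = 7) and 6.98 ± 0.11 in wild-type control (SD, n = 5), and the groups overlapped. Cdk4, the kinase partner, averaged 7.31 ± 0.15 in knockout control (SD, n = 7) and 7.002 ± 0.22 in wild-type control (SD, n = 5). Cdk4 rose by a log2 change of 0.31 (SE 0.09, limma, adjusted p = 0.013). The adjusted p became 0.051 without wild-type control replicate 3, 0.058 with the compared groups alone and 0.11 without knockout control replicates 2, 6 and 7. Of its 2 other tested probe sets, 1 was called at 0.64 and 1 was not, at 0.079 (limma, adjusted p = 0.48). With phenobarbital, Cdk4 averaged 7.19 ± 0.12 in knockout (SD, n = 7) and 7.16 ± 0.08 in wild type (SD, n = 4), which did not pass the test (limma, adjusted p = 0.86).

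**Figure D2:**
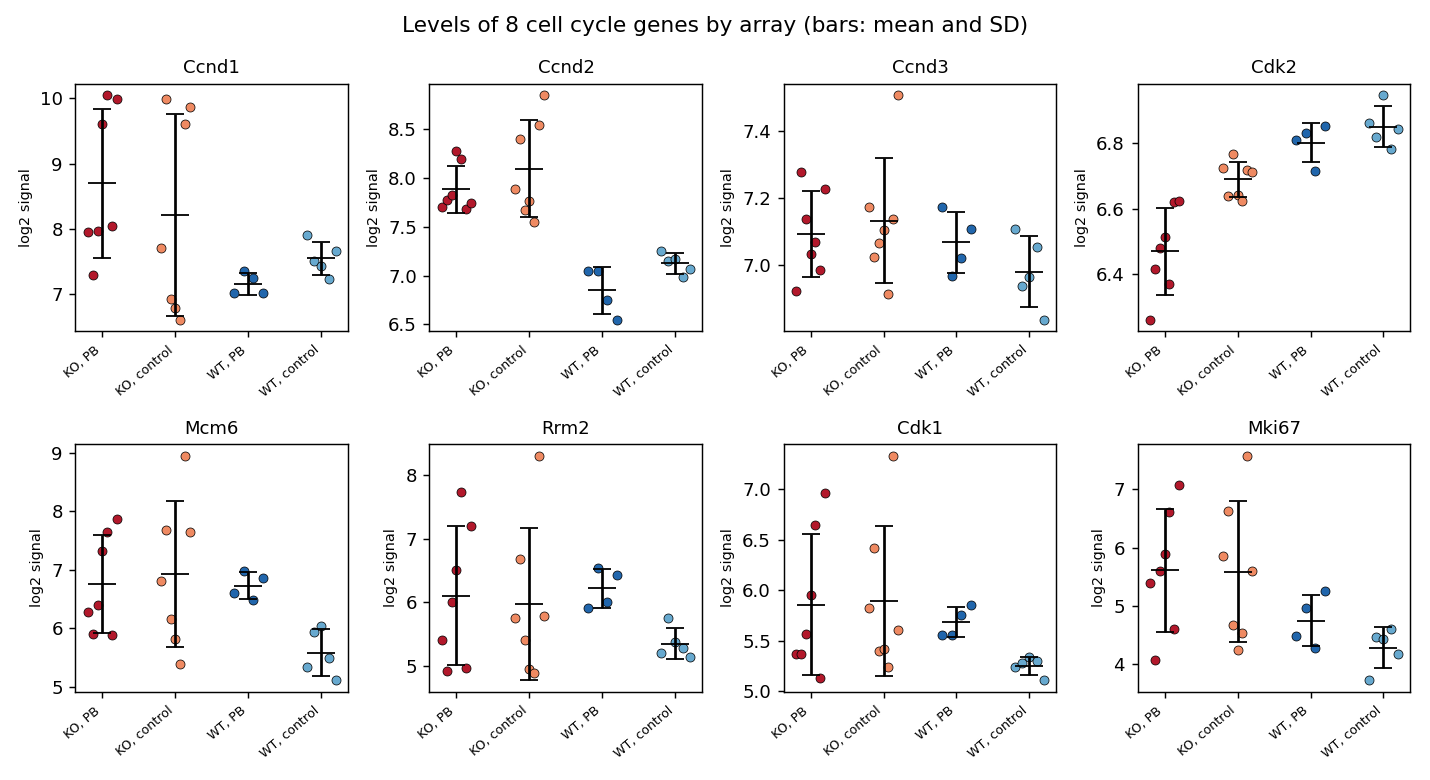
Log2 signal of 8 genes, 1 point per array, in the 4 groups, with bars for the mean and SD (n = 7, 7, 4 and 5 from left to right). The y axes do not start at 0 and differ between genes. Ccnd2 separates the genotypes, Cdk2 is lower on the knockout arrays, and Ccnd1, Mcm6, Rrm2, Cdk1 and Mki67 spread widely in both knockout groups.

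In G1 to S control, Cdk2 was lower in knockout, while Ccne1, Ccne2 and E2f1 were not called. Cdk2 is the kinase of cyclins E and A, and its single tested probe set carried each of these calls. With phenobarbital the Cdk2 level was 6.26, 6.42, 6.48, 6.51, 6.37, 6.62 and 6.62 in knockout livers, against 6.81, 6.83, 6.72 and 6.85 in wild type. Without it, the level was 6.72, 6.64, 6.77, 6.64, 6.62, 6.72 and 6.71 in knockout livers, against 6.86, 6.82, 6.95, 6.78 and 6.84 in wild type. The genotypes did not overlap in either pair. Cdk2 fell by 0.33 on the log2 scale in knockout with the drug (SE 0.06, limma, adjusted p = 0.0005, called under all 33 alternatives). Without the drug it fell by 0.16 (SE 0.06, limma, adjusted p = 0.039), a call lost when any of 8 single arrays was left out (adjusted p from 0.052 to 0.11). Those were knockout control replicates 2, 4, 5 and 6 and wild-type control replicates 1, 2, 3 and 5. It was also lost without knockout control replicates 2, 6 and 7 together (adjusted p = 0.13). In knockout livers phenobarbital gave a fall of 0.22 (SE 0.05, limma, adjusted p = 0.025). That call was lost without knockout phenobarbital replicate 1 (adjusted p = 0.053) or 2 (adjusted p = 0.051), and with only the knockout arrays in the fit (adjusted p = 0.11). With the mean of its probe sets the change was -0.10 (adjusted p = 0.25). The 2 treatment groups touched, at 6.62 on both sides.

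Ccne1 and Ccne2 encode the E cyclins that activate Cdk2, and E2f1 is a transcription factor of S phase genes. Ccne1 averaged 6.23 ± 0.13 in knockout control (SD, n = 7) and 6.27 ± 0.11 in wild-type control (SD, n = 5). Ccne2 averaged 5.26 ± 0.57 in knockout control (SD, n = 7) and 4.83 ± 0.31 in wild-type control (SD, n = 5). Its knockout mean was raised by replicate 6, at 6.52, while the other 6 arrays lay between 4.81 and 5.17. E2f1 averaged 5.54 ± 0.13 in knockout control (SD, n = 7) and 5.42 ± 0.13 in wild-type control (SD, n = 5).

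In S phase, 3 of 9 tested genes were called higher in knockout control than in wild-type control, beside 14.8% of all genes. None was called in knockout against wild type with phenobarbital, beside 11.9% of all genes higher and 8.12% lower. The MCM proteins form the helicase that unwinds DNA at replication origins. Mcm2 had levels of 7.27, 7.41, 7.04, 7.04, 7.02, 7.67 and 7.26 in knockout control, against 7.04, 6.81, 6.68, 6.77 and 6.58 in wild-type control. Mcm2 rose by a log2 change of 0.47 (SE 0.11, limma, adjusted p = 0.0054), and the call held without any 1 array. Leaving out knockout control replicates 2, 6 and 7 gave 0.32 with an adjusted p of 0.071. Its other tested probe set gave 0.54 and was not called (adjusted p = 0.13). Mcm6 had levels of 6.81, 7.68, 6.15, 5.82, 5.39, 8.95 and 7.65 in knockout control, against 5.34, 5.93, 6.04, 5.50 and 5.11 in wild-type control. Knockout replicates 4 and 5 lay inside the wild-type range and the other 5 above it. Mcm6 rose by 1.34 (SE 0.48, limma, adjusted p = 0.045). The call was kept under 12 of 33 alternatives, and the change was 0.46 without knockout control replicates 2, 6 and 7 (adjusted p = 0.49). Its other tested probe set gave 1.44 (adjusted p = 0.052). Mcm3 rose by 0.40 (SE 0.14, limma, adjusted p = 0.040), kept under 20 of 33. The change was 0.18 without the same replicates (adjusted p = 0.42). None of its 3 other tested probe sets was called, at 0.15, 0.34 and 0.69 (adjusted p from 0.060 to 0.28).

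The other 6 tested S phase genes did not pass the test. Pcna, the sliding clamp of DNA polymerase, had levels of 10.02, 10.02, 9.43, 9.50, 9.59, 10.65 and 10.17 in knockout control, against 9.61, 9.36, 9.53, 9.58 and 9.50 in wild-type control. Rrm2, a subunit of the ribonucleotide reductase that makes DNA precursors, had levels of 5.75, 6.68, 5.40, 4.95, 4.89, 8.30 and 5.79 in knockout control, against 5.20, 5.75, 5.38, 5.28 and 5.14 in wild-type control. Replicate 6 was the highest knockout array for both, and both pairs of groups overlapped (limma, adjusted p = 0.078 for Pcna and 0.39 for Rrm2).

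In G2 and M phase, none of 18 tested genes was called higher in knockout, beside 14.8% of all genes without the drug and 11.9% with it. Foxm1 alone was called lower, beside 10.1% and 8.12%. Mki67 encodes the proliferation marker Ki-67. Its level was 5.86, 6.63, 4.68, 4.24, 4.54, 7.57 and 5.61 in knockout control, against 3.73, 4.48, 4.44, 4.60 and 4.18 in wild-type control. With phenobarbital it was 5.40, 4.08, 5.60, 5.89, 6.62, 4.61 and 7.07 in knockout, against 4.49, 4.97, 4.28 and 5.25 in wild type. The highest knockout arrays lay about 3 units above the lowest in each group. The log2 change in knockout was 1.30 without the drug (SE 0.51, limma, adjusted p = 0.065) and 0.86 with it (SE 0.55, limma, adjusted p = 0.28). The first passed when knockout control replicate 3, 4 or 5 was left out (adjusted p from 0.029 to 0.044), and was 0.55 without replicates 2, 6 and 7 (adjusted p = 0.51).

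Cdk1, the kinase that drives entry into mitosis, had levels of 5.82, 6.41, 5.40, 5.42, 5.24, 7.33 and 5.60 in knockout control, against 5.24, 5.28, 5.33, 5.30 and 5.11 in wild-type control. Ccna2, the cyclin of S phase and G2, averaged 5.77 ± 0.89 in knockout control (SD, n = 7) and 5.26 ± 0.09 in wild-type control (SD, n = 5). Neither passed the test (limma, adjusted p = 0.14 for Cdk1 and 0.26 for Ccna2). Foxm1, itself an activator of mitotic genes, averaged 5.72 ± 0.17 in knockout control (SD, n = 7) and 6.02 ± 0.09 in wild-type control (SD, n = 5). With phenobarbital it averaged 5.78 ± 0.09 in knockout (SD, n = 7) and 6.03 ± 0.02 in wild type (SD, n = 4), with no overlap. It fell by 0.30 on the log2 scale without the drug (SE 0.07, limma, adjusted p = 0.0052) and by 0.25 with it (SE 0.08, limma, adjusted p = 0.023). The call with the drug was lost without wild-type phenobarbital replicate 3 (adjusted p = 0.064) or 4 (adjusted p = 0.050). Without knockout control replicates 2, 6 and 7 the change without the drug was -0.24 (adjusted p = 0.024). Its second probe set was also negative and not called.

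For Top2a and Cdc20 the probe set that the rule takes did not follow the other members, and another one did, a comparison made after the values were seen. Top2a encodes the topoisomerase that untangles chromosomes. Its chosen probe set had a median of 5.14 and a highest value of 5.47 in knockout control, against a median of 5.02 and a highest value of 5.14 in wild-type control. A second probe set ran between 3.94 and 7.28 in knockout control and between 4.21 and 4.59 in wild-type control. Cdc20, an activator of the anaphase-promoting complex, stayed between 6.06 and 6.38 in knockout control and between 6.02 and 6.29 in wild-type control by its chosen probe set. Another ran between 4.86 and 7.89 in knockout control and between 5.02 and 5.55 in wild-type control.

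The promoter windows of the members were searched for short motifs of cell cycle genes, and 3 windows are printed to show an S phase gene beside G2 and M phase genes. Windows of 250 bases before to 50 after the start came from RefSeq (GRCm38.p6), which held 36 windows for 33 of the 42 genes, Ccnb1 among them. Capitals mark E2F-type strings (TTGGCGC or TTCCCGC), the CHR element of mitotic genes (TTTGAA or TTCGAA) and the CCAAT box, on either strand. The windows are chr1:128359656-128359955 for Mcm6, chr10:69352863-69353162 for Cdk1 and chr7:135716330-135716629 for Mki67, all on the minus strand and written 5′ to 3′.
Mcm6: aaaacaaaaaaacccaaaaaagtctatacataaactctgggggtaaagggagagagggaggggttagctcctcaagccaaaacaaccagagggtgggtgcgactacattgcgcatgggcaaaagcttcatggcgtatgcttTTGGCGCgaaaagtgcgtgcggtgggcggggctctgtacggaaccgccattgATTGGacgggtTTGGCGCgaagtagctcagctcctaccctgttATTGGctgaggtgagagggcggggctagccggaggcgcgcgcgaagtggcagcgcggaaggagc
Cdk1: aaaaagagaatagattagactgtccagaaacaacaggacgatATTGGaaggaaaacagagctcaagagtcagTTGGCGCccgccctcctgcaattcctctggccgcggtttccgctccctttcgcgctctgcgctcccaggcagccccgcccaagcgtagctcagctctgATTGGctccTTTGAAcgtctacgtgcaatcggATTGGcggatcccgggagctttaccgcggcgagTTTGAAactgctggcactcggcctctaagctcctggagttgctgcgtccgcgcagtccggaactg
Mki67: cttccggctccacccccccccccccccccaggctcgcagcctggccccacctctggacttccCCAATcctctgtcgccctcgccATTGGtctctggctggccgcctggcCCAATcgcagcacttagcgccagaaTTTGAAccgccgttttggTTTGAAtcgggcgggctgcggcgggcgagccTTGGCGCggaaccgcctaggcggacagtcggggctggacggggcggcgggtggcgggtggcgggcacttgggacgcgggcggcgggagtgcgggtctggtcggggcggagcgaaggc
Mcm6 holds E2F-type strings starting 109 and 46 bases before the start and no CHR, while Cdk1 holds a CHR at 71 and 15 bases before it and Mki67 at 116 and 98. Cdk1 and Mki67 also hold an E2F-type string, at 178 and 67 bases before the start.

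E2F-type strings stood in 6 of 10 windows of S phase genes, in 3 of 20 of G2 and M phase genes (Ccnb1, Cdk1 and Mki67) and in 6.81% of all 32851 windows. CHR strings stood in 15 of 20 windows of G2 and M phase genes, in 2 of 10 of S phase genes and in 19.2% of all windows. Prc1 and Mcm7 each entered with 2 windows, and those of Prc1 overlap. By gene, E2F-type strings stood in 5 of 9 S phase and 3 of 19 G2 and M phase genes. CHR strings stood in 2 of 9 and 14 of 19. The CCAAT box was present in 17 of 20 G2 and M phase windows, in 9 of 10 S phase windows and in 37.4% of all. Both a CHR and a CCAAT box stood in 15 of 20 G2 and M phase windows and in 7.52% of all windows. All 15 G2 and M phase windows with a CHR thus also had a CCAAT box. Over all windows, 2472 of the 6316 with a CHR did. The TCF/LEF-type string CTTTGAT, which overlaps no CHR string, stood in 2 of 20 G2 and M phase windows, in no S phase window, in that of Cdk4 and in 3.73% of all. These matches describe letters in windows that were not matched for base composition, and they were not set against the array values.

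The first comparison asked what phenobarbital did to these genes in wild-type liver. With all 23 arrays in the fit, 0 of 35 members were called in either direction, against 1.95% of all genes called higher and 1.9% lower. At an unadjusted p under 0.05, 2 of 35 members passed (Mcm6 and E2f1), beside 15.5% of all genes. Of the 10 measured S phase genes, 9 had a positive change, beside 53.5% of all genes. Their median was 0.23, beside 0.01 over all genes. The Mcm6 level was 6.60, 6.97, 6.48 and 6.87 in phenobarbital-treated wild type, against 5.34, 5.93, 6.04, 5.50 and 5.11 in wild-type control. The Rrm2 level was 5.90, 6.53, 6.01 and 6.43 in phenobarbital-treated wild type, against 5.20, 5.75, 5.38, 5.28 and 5.14 in wild-type control. The Cdk1 level was 5.56, 5.56, 5.75 and 5.86 in phenobarbital-treated wild type, against 5.24, 5.28, 5.33, 5.30 and 5.11 in wild-type control. Mcm6, Rrm2, Cdk1 and Kif20a (a mitotic kinesin) were higher with no overlap, 4 of 35 tested beside 6.04% of all genes. Cenpa, the histone of centromeres, was lower with no overlap, 1 of 35 beside 5.56%.

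The shared estimate of the spread takes in the knockout arrays, which vary more for these genes. In a fit of the 9 wild-type arrays alone, 6 members were called higher, against 3.51% of all genes, and 1 lower, against 3.21%. Mcm6 gave a log2 change of 1.14 (SE 0.19, limma, adjusted p = 0.0048), where the fit of all arrays had an SE of 0.55 and an adjusted p of 0.32. Rrm2 gave 0.87 (SE 0.15, limma, adjusted p = 0.0077) and Cdk1 0.43 (SE 0.08, limma, adjusted p = 0.0085). Ccnb2 (cyclin B2), Aurka (a spindle kinase) and Kif20a gave 0.68, 0.36 and 0.34 (adjusted p from 0.031 to 0.047), and Cenpa gave -0.35 (adjusted p = 0.027). Mki67 was not among them, at 0.47 (SE 0.22, limma, adjusted p = 0.24). Macrophage markers did not rise with the drug in wild type: their mean lay between 6.63 and 6.86 in phenobarbital-treated arrays and between 6.64 and 7.32 in controls.

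In knockout liver, no member was called higher with phenobarbital, against 1.17% of all genes, and Cdk2 alone was called lower, 1 of 35 against 0.882%. The median over the 41 members was -0.03, beside 0.01 over all genes. A positive change was seen for 1 of 10 S phase genes, beside 54.9% of all genes. Mcm6 averaged 6.76 ± 0.84 with the drug (SD, n = 7) and 6.92 ± 1.25 in knockout control (SD, n = 7). The test of the difference between genotypes called no member in either direction, against 0.354% of all genes higher and 0.521% lower. For Mcm6 that difference was -1.31 (SE 0.70, limma, adjusted p = 0.56), and all 10 S phase genes had the same sign. Over all genes 50.2% had a positive difference. At an unadjusted p under 0.05, 2 of 35 members passed (Cdk2 and Cdk4), beside 10.3% of all genes. The S phase mean was 7.05, 7.84 and 6.98 on knockout control replicates 2, 6 and 7. On the other knockout controls it lay between 6.17 and 6.73, and in knockout with phenobarbital between 6.24 and 7.23. In wild type it lay between 6.48 and 6.69 with the drug and between 6.16 and 6.38 without it. The signs of the S phase genes given here were not examined without knockout control replicates 2, 6 and 7.

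Set side by side by role, the median log2 change of the 3 D cyclins in knockout was that of Ccnd2, at 1.03, with the drug, and that of Ccnd1, at 0.67 and not called, without it. S phase genes had 0.09 with the drug and 0.44 without it, and G2 and M phase genes 0.19 with it and 0.33 without it. The medians over all 18193 genes were -0.02 in both comparisons. All 10 S phase genes and 22 of 23 G2 and M phase genes had a positive change in knockout without the drug. With the drug, 7 of 10 and 20 of 23 did. Over all genes the share with a positive change was 44.3% without the drug and 46.1% with it. Without knockout control replicates 2, 6 and 7 the comparison without the drug had 7 of 10 and 16 of 23 positive, beside 49.2% of all genes. The medians were then 0.14 for S phase, 0.08 for G2 and M phase and 0.08 for the D cyclins. Both drug-treated groups enter the comparison with the drug, with the wild-type Mcm6 and Rrm2 levels given above. Those were not called against wild-type control in the fit of all arrays, and their part in these medians was not tested.

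**Figure D3:**
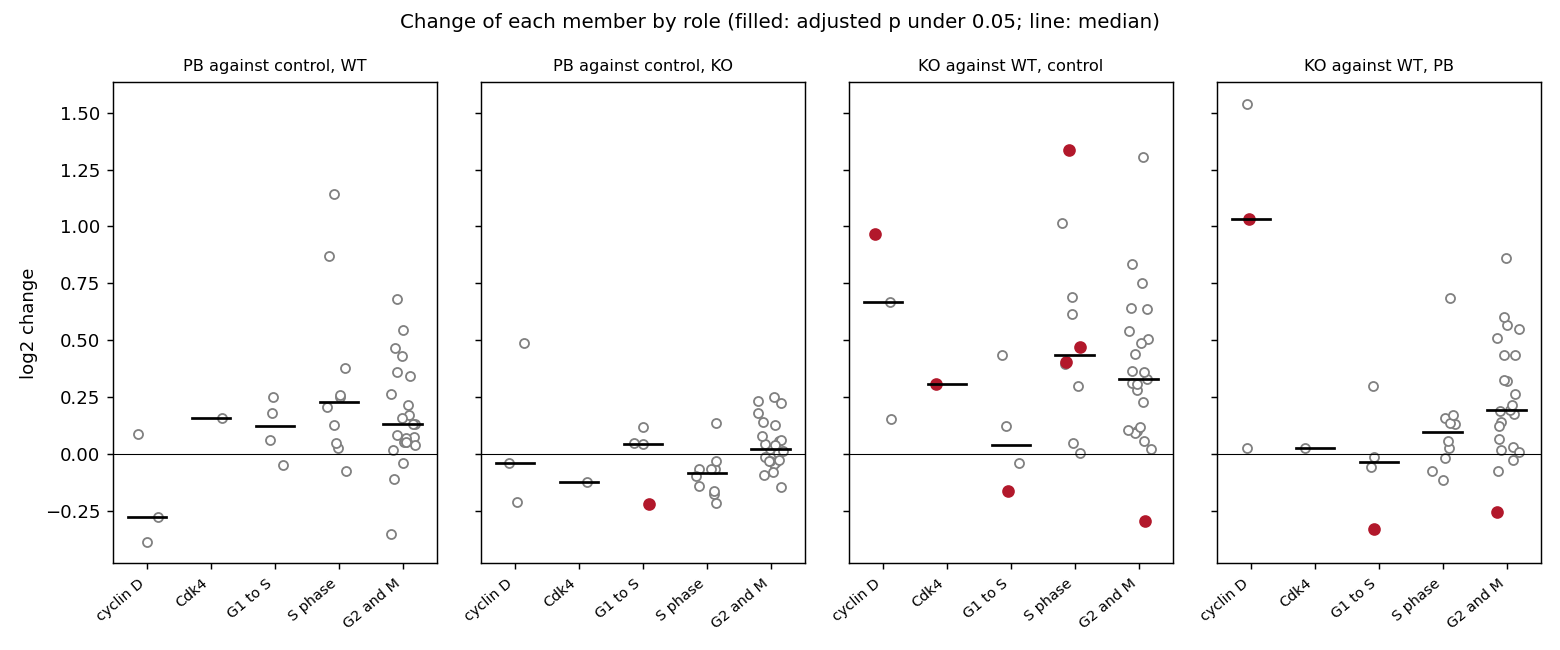
Log2 change of each measured gene in 4 comparisons, by role, with 1 point per gene, filled where the limma adjusted p is under 0.05, and a line at the median of the role. S phase genes lie mostly above 0 for phenobarbital in wild type (median 0.23) and near 0 for phenobarbital in knockout, and the D cyclin median in knockout with phenobarbital is the Ccnd2 value of 1.03.

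The spread between knockout arrays was large for these genes. Their median SD was 0.27 in knockout with phenobarbital and 0.44 in knockout control, beside 0.14 and 0.16 over all genes tested. In wild type it was 0.17 with phenobarbital and 0.14 in controls, beside 0.09 and 0.12. In each knockout group 13 of 41 members had an SD above the 95th percentile of all genes tested. In wild type 8 of 41 did with phenobarbital and 4 of 41 in controls. Ccnd1 had the highest SD of the members in both, at 1.14 with the drug and 1.55 without.

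The spread lay in whole arrays rather than in single genes. Knockout control replicate 6 had the highest level of its group for 34 of 41 members, and for 30 of the 33 genes of S, G2 and M phase. Among phenobarbital-treated knockout arrays, replicate 5 was highest for 20 and replicate 7 for 14 of 41. The number of S, G2 and M phase genes above every wild-type array was 4, 4, 7, 13, 26, 0 and 29 of 33 in knockout with phenobarbital. In knockout control it was 10, 24, 1, 1, 1, 30 and 12 of 33. Over all genes tested, the share above every wild-type array ran from 19.7% to 27.3% on knockout arrays with phenobarbital and from 17.6% to 29.7% on knockout control arrays. The number of these 33 genes below every wild-type array was 2, 6, 3, 3, 1, 4 and 1 in knockout with phenobarbital and 1, 1, 2, 4, 7, 1 and 3 in knockout control. Over all genes that share ran from 12.4% to 25.3% on knockout arrays with phenobarbital and from 12.0% to 31.6% on knockout control arrays.

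On knockout control replicate 7, D cyclins were high while most mitotic genes lay within the wild-type range. Knockout control replicate 7 had a Ccnd1 level of 9.87 and the highest Ccnd2 and Ccnd3 of its group, and its S phase mean was 6.98. Its G2 and M phase mean was 4.75, against 5.96 on replicate 6 and 5.29 on replicate 2, which had like Ccnd1 levels. Of 23 G2 and M phase genes, 6 lay above every wild-type array on replicate 7, beside 29.7% of all genes tested. Mki67 and Nusap1 were among the 6. The same array had the lowest limma array weight (0.21, where a lower weight marks an array that departs more from its group), the lowest array median (5.09) and the highest neutrophil marker mean (6.50), whose part was not tested. The wild-type arrays had G2 and M phase means between 4.51 and 4.88. Conversely, Ccnd2 was raised on replicates 3, 4 and 5 of the same group, each of which had 1 of 33 S, G2 and M phase genes above every wild-type array. Over all genes tested that share was 17.6%, 18.2% and 18.5% on these arrays. Among phenobarbital-treated knockout arrays, replicate 4 also had high D cyclins, with Ccnd1 at 9.60 and the highest Ccnd2 of its group (8.27). On it, 9 of 23 G2 and M phase genes lay above every wild-type array and 2 below, with a mean of 5.02. Over all genes tested, 25.5% lay above and 22.1% below on that array.

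Macrophage markers were high on the knockout arrays with most S, G2 and M phase genes above wild type. They were also high on knockout control replicate 7, where the G2 and M phase mean was 4.75. The mean of 16 markers, all above the filter level on some array, was 8.18, 7.36, 8.50, 9.18, 9.39, 7.64 and 9.27 in knockout with phenobarbital. In knockout control it was 9.08, 9.49, 7.45, 7.54, 7.54, 9.86 and 9.57. In wild type it lay between 6.63 and 7.32. Stellate cell markers (11 of 11 above it) lay between 8.04 and 9.79 in knockout and between 7.40 and 7.69 in wild type. They were 9.47, 9.79 and 8.995 on knockout control replicates 2, 6 and 7, and between 8.39 and 8.62 on the others. With phenobarbital they were 9.01, 8.87 and 8.68 on knockout replicates 4, 5 and 7, and between 8.04 and 8.45 on the others. Endothelial markers (11 of 11) lay between 6.61 and 7.32 in knockout and between 6.15 and 6.49 in wild type. Neutrophil markers (7 of 8, with Mpo below the filter level on all arrays) lay between 5.103 and 6.50 in knockout and between 4.91 and 5.07 in wild type. Lymphocyte markers (12 of 14, without Cd2 and Cd8b1) lay between 4.94 and 5.52 in knockout and between 4.84 and 5.03 in wild type. Cholangiocyte markers (4 of 6, without Krt7 and Cftr) lay between 4.71 and 5.22 in knockout and between 4.51 and 4.78 in wild type. Erythroid markers (2 of 6) were lower, between 4.67 and 5.14 in knockout and between 5.03 and 5.22 in wild type. The part of these cells in the results was not tested, and in whole liver more cells of a type and more RNA per cell cannot be told apart.

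In knockout with phenobarbital, Mki67 correlated with the macrophage mean over 7 arrays, with Pearson's r = 0.95 (exact permutation test, two-sided, p = 0.0006, adjusted p = 0.0012) and Spearman's rho = 0.96 (exact permutation p = 0.0028, adjusted p = 0.0056). Without the 2 arrays farthest from the median of the markers r was 0.90. The chosen Top2a probe set gave r = 0.21 (exact permutation p = 0.65) and rho = 0.29 (exact permutation p = 0.56), and r = 0.16 without those 2 arrays. The p-values were adjusted over these 2 genes. The chosen Top2a probe set is the one described above as not following the other members. The second one, which was not tested against the macrophage mean, had levels of 5.40, 4.29, 5.18, 5.65, 6.77, 4.87 and 6.82 in that group. No r is given for Ccnd1 in that group or for any gene in knockout control, because the values fell into separate clusters.

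**Figure D4:**
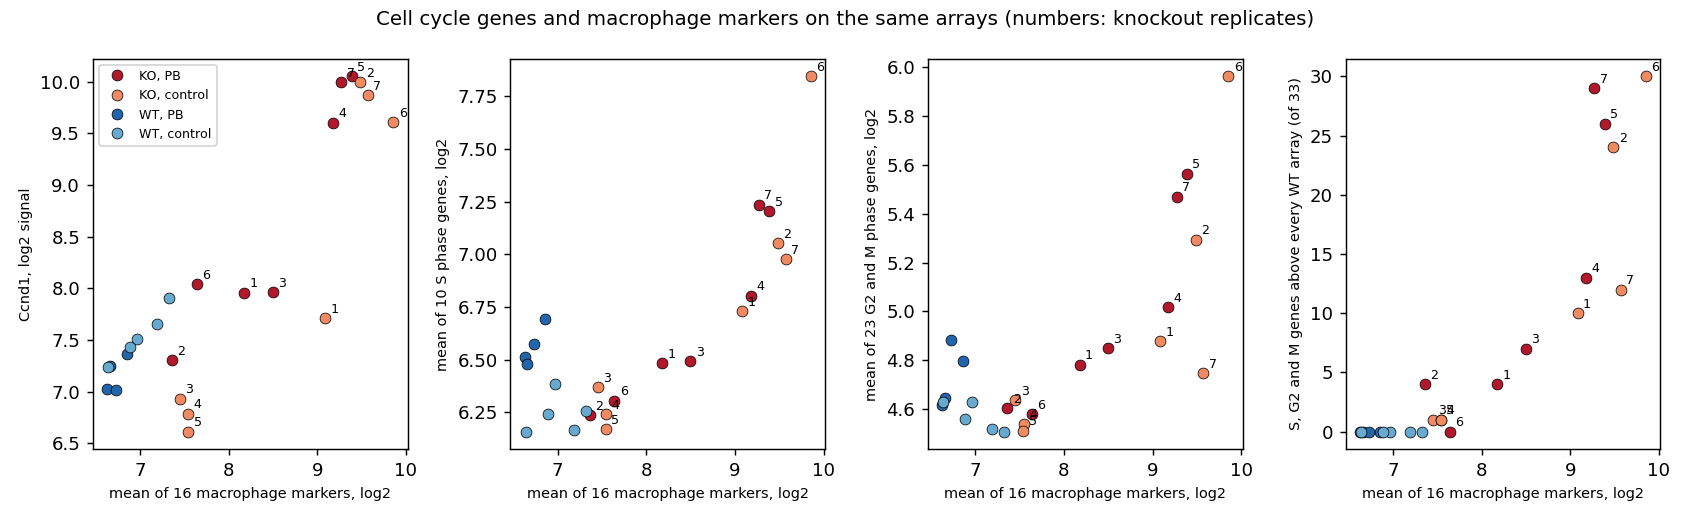
For each of the 23 arrays, the mean of 16 macrophage markers (x axis, log2) against Ccnd1, the S phase mean, the G2 and M phase mean (all log2) and the number of 33 S, G2 and M phase genes above every wild-type array. Knockout arrays are numbered by replicate, and knockout control replicate 7 has a high Ccnd1 but a G2 and M phase mean of 4.75.

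Among 112 other cell cycle genes measured beside the members, 98 were tested. In knockout control against wild-type control 8 were called higher and 2 lower, and in knockout against wild type with phenobarbital 5 higher and 4 lower. Each of these counts is a smaller share than over all genes (14.8% and 10.1% without the drug, 11.9% and 8.12% with it). Phenobarbital changed 2 upward and 1 downward in wild type, beside 1.95% and 1.9% of all genes. In knockout it changed none, beside 1.17% of all genes higher and 0.882% lower. The response of 1 differed between genotypes, upward, beside 0.354% of all genes upward and 0.521% downward. The inhibitor Cdkn1a (p21) rose most. Its level was 7.94, 9.12, 7.76, 7.54, 7.56, 9.23 and 9.55 in knockout control, against 6.91, 6.95, 6.65, 6.54 and 6.16 in wild-type control. With phenobarbital it lay between 8.01 and 9.19 in knockout and between 6.64 and 7.11 in wild type. The groups did not overlap, and the log2 change was 1.74 without the drug (SE 0.32, limma, adjusted p = 0.0005) and 1.64 with it (SE 0.34, limma, adjusted p = 0.0020). The change without the drug was 1.06 when the 3 knockout controls were left out (adjusted p = 0.0029). Like Ccnd2, Cdkn1a was higher on all knockout arrays than on any wild-type array of the same treatment.

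Cdkn1b (p27), an inhibitor of Cdk2, was lower with phenobarbital in wild type, at 7.40, 7.31, 7.41 and 7.39, against 7.77, 7.81, 7.73, 7.76 and 7.69 in wild-type control. The groups did not overlap, and it fell by 0.38 on the log2 scale (SE 0.06, limma, adjusted p = 0.0009). In knockout it averaged 7.72 ± 0.12 with the drug (SD, n = 7) and 7.67 ± 0.08 in knockout control (SD, n = 7), a change of 0.06 (SE 0.05, limma, adjusted p = 0.66). The difference between genotypes in the response was 0.43 (SE 0.08, limma, adjusted p = 0.0079, over the alternatives from 0.0008 to 0.25). In knockout against wild type with the drug, Cdkn1b rose by 0.34 (SE 0.06, limma, adjusted p = 0.0003). With the mean of its probe sets the changes were -0.24 for phenobarbital in wild type (adjusted p = 0.035), 0.24 for the difference in response (adjusted p = 0.25) and 0.16 between genotypes with the drug (adjusted p = 0.062).

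Spc24, a kinetochore protein, rose by 0.78 with phenobarbital in wild type (SE 0.18, limma, adjusted p = 0.015). In knockout against wild type its change was -1.16 with the drug (SE 0.17, limma, adjusted p = 0.0001) and -0.58 without (SE 0.16, limma, adjusted p = 0.013). The call in wild type was lost under 1 of 33 alternatives (highest adjusted p = 0.077). E2f3, an activating E2F, rose by 0.53 with phenobarbital in wild type (limma, adjusted p = 0.011) and by 0.48 in knockout control (limma, adjusted p = 0.0026), where its second probe set gave -0.05. E2f8, a repressive E2F, fell by 1.20 in knockout with the drug (limma, adjusted p = 0.0063). Ccng1, a p53 target, rose by 0.86 in knockout with the drug (limma, adjusted p = 0.0077) and by 0.61 without it (limma, adjusted p = 0.030), where the change was 0.13 without knockout control replicates 2, 6 and 7 (adjusted p = 0.33). Smc4, a condensin subunit, rose by 0.50 in knockout control (limma, adjusted p = 0.039) and Smc2, its partner, by 0.89 in knockout with the drug (limma, adjusted p = 0.048). The Smc4 call was kept under 21 of 33 alternatives and the Smc2 call under 13 of 32. With the 3 knockout controls left out Smc4 gave 0.20 (adjusted p = 0.41). With those arrays left out, E2f3, Spc24 and Fen1 gave 0.38, -0.65 and -0.60 in knockout without the drug (limma, adjusted p up to 0.033). Neither of the 2 other tested probe sets of Smc4 was called in knockout control (0.29 and 0.30). Fen1, a flap endonuclease, fell by 0.58 and by 0.47 in knockout without and with the drug, but its other probe set gave 0.59 and 0.47. Myc, a transcription factor that promotes growth, was not called in any comparison (limma, adjusted p from 0.32 to 0.99).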

How the data were processed

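The labels describe total RNA from whole liver, labelled with an Affymetrix 3' kit, 1 array per sample. The authors deposited a log2 signal for each probe set, made with RMA and affy, per the submitters' processing notes. The versions used, and the arrays that were normalized as one set, are not given in the sources used here. RMA pulls the arrays' distributions together and compresses low signals. The values were used as deposited.

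Of 45037 probe sets, 34945 had exactly 1 gene in the platform annotation, 932 several and 9160 none. Symbols were updated through Entrez identifiers for 34741. Of 18193 genes, 13826 were tested: those whose probe set passed the 40th percentile of the array on 4 arrays or more. The filter level averaged 4.56. limma 3.58.1 (R 4.3.3) fitted 1 mean per group to all 23 arrays, with moderated variances, two-sided tests and Benjamini-Hochberg adjustment over all genes tested at a threshold of 0.05. The interaction subtracts the wild-type response to phenobarbital from the knockout one. The fit was tested on simulated data. No 2 arrays were identical, and the highest correlation between 2 was 0.997. The number of arrays limits the precision.

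The members, roles, other cell cycle genes, marker lists and alternatives were chosen with earlier results of these data known. Named were a core of 17 members, every other member called or without overlap, the 5 largest calls of the other genes per comparison, and Cdkn1a, Cdkn1b, Myc and Ctnnb1. Of the 41 measured members, 10 rest on probe sets marked by the manufacturer as able to match several transcripts. They are Ccne1, Cdk4, Cdc20, Aurkb, Mcm2, Mcm3, Mcm5, Mcm7, Rrm2 and Prc1. Among them, Cdk4, Mcm2 and Mcm3 were called higher in knockout control, and Rrm2 in the fit of wild-type arrays alone. Alternatives were no filter, a 60th percentile filter, quantile normalization, median centring, other probe sets, a trended prior, array weights, a replicate block, the compared groups alone, and arrays left out singly or, for 3 knockout controls, together.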

Additional observations from a re-analysis of the deposited data

Results flagged for a closer look

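Of 164 levels of members within a group, 15 had 1 array far from the others, by the gap to the nearest array over the group's range. Chance flags about 1 in 20 groups. Of the 15, 7 were the highest value of knockout control replicate 6: Ccne2 at 6.52, Bub1 at 5.49, Bub1b at 5.25, Mcm7 at 9.01, Rrm1 at 8.04, Kif20a at 6.03 and Melk at 5.67. In knockout with phenobarbital, Kif20a stood out at 5.95 on replicate 5 and E2f1 at 5.83 on replicate 3. In wild type with phenobarbital, low values stood out for Ccne1 at 6.23 on replicate 2, Aurkb at 3.05 on replicate 1 and Cenpa at 5.85 on replicate 3. In wild-type control, Aurka was high at 4.83 on replicate 2, Cenpa was high at 6.58 on replicate 5 and Mcm4 was low at 5.67 on replicate 4. The response of Cdkn1b to phenobarbital differed between genotypes by 0.43 on the log2 scale, knockout minus wild type (limma, adjusted p = 0.0079).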

How the results depend on the processing

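Of 328 counts of called members under the alternatives, 290 stayed within 1.5 times the main count. For phenobarbital in wild type, the wild-type arrays alone gave 6 members higher and 1 lower, in place of 0 and 0. For phenobarbital in knockout, 1 was higher (Ccnd1) without knockout control replicates 2, 6 and 7, its 3 highest control arrays, and 0 were lower with the mean of probe sets or the knockout arrays alone, with a range of 0 to 1 when 1 array was left out. In knockout against wild type without the drug, the count higher was 3 with the mean of probe sets and with array weights, 2 with the compared groups alone, 1 without the 3 arrays, and 2 to 9 with 1 array left out. The count lower was 1 without the 3 arrays and 1 to 2 with 1 left out. With the drug, 2 were higher with array weights and with the compared groups alone, 3 without the 3 arrays, and 1 to 2 were lower with 1 array left out. Ccnd1 in knockout without the drug turned to -0.10 with array weights and -0.54 without the 3 arrays. Mki67 for phenobarbital in knockout ran from -0.22 to 0.35 with 1 array left out, and its interaction turned to 0.31 without the 3 arrays. E2f3 in knockout without the drug was -0.0486 and Kif2c with it 0.0206 by another probe set. Fen1 without the drug was 0.00324 with the mean of probe sets and 0.59 by its other probe set, and with the drug 0.47 by that probe set. Apart from what the alternatives themselves change, the cause was not tested. Of 51 results on single genes, 16 kept direction and side of the threshold under every alternative run. Quantile normalization made 67.5% of all genes called for phenobarbital in knockout higher ones, against 57.0% as deposited.

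The replicate numbers did not pair the samples: deviations of same-numbered arrays correlated between -0.70 and 0.63. With the replicate block, 2 members were higher in knockout without the drug in place of 5, and 1 was lower with the drug in place of 2.

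Low signal limits the 6 genes below the filter, and 7 arrays or fewer per group limit every change.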
